A study of Rattus norvegicus with 12 samples.

Results

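The response to tetrodotoxin (TTX) shared by wild-type and Ehmt1 knockdown neurons was measured over all 12 libraries of the study as the mean of 6 within-culture differences. Each difference was the TTX library minus the untreated library of the same genotype and replicate number, with wild-type and knockdown given equal weight. The libraries were made from ribosomal RNA-depleted total RNA of primary cortical neuron cultures from Wistar rats at embryonic day 18. There were 3 libraries each of untreated wild-type cultures, TTX-treated wild-type cultures, untreated Ehmt1 shRNA cultures and TTX-treated Ehmt1 shRNA cultures. The shRNA is a short hairpin RNA against Ehmt1, a histone H3 lysine methyltransferase whose loss in people causes Kleefstra syndrome. No control hairpin is named in the titles, and the dose and duration of TTX were not given in the sources used here. Every gene symbol of the deposited table was taken as a member, 17339 in all, of which 12073 passed a minimum of 10 read equivalents in at least 3 libraries and 5266 did not. Levels are in read equivalents: deposited coverage, already divided by the authors' size factors, over the inferred read length of 42 nt.

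TTX blocks most voltage-gated sodium channels of cortical neurons and so stops action potentials and the synaptic release they drive. Neurons read their own firing largely through calcium entry, which acts through kinases and the transcription factor CREB on immediate early genes and, later, on secreted effectors such as BDNF and neuropeptides. Prolonged silencing of cortical cultures is the classical trigger of synaptic upscaling, in which neurons strengthen their excitatory synapses. CREB binds the cAMP response element, CRE. Enzymes of cholesterol synthesis form a separate regulon under SREBP2, a membrane-bound transcription factor that is released when sterols are low.

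Before size factors a library summed to between 15108848 and 24787516 read equivalents, and the 2 largest genes took 2.49% to 11.7% of a library. That a TTX and an untreated library of the same genotype and number share a culture is an inference and not in the labels: their deviations from the group means correlated at 0.438 to 0.849, against -0.695 to 0.224 for libraries with different numbers. As each group was centred on its own mean, positive values for same numbers push those for different numbers down. The contrast between these ranges is therefore partly built in. Ehmt1 was at 1772, 1586 and 1599 read equivalents in untreated wild-type cultures 1 to 3 and at 2039, 1739 and 1839 with TTX. The Ehmt1 levels of knockdown cultures 1 to 3 were 1044, 1535 and 1037 without TTX and 1187, 1519 and 1162 with it. Its level was lower in the knockdown libraries, though knockdown culture 2, at 1535 untreated, lay close to the lowest untreated wild-type culture at 1586. The TTX change of Ehmt1 did not pass (log2 0.15, SE 0.05, adjusted p = 0.105). The 9 neuron markers were all detected and their summed level was lower with TTX in 6 of 6 pairs, at 73830 to 120725 read equivalents untreated and 57311 to 95987 with TTX. The summed levels of the astrocyte, oligodendrocyte and progenitor lists were higher in 6 of 6 pairs, although the mean log2 change over the oligodendrocyte genes was below 0 in 3 of them (-0.25 to -0.08). In such bulk RNA, fewer cells of a type and less RNA per cell cannot be told apart.

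More genes were called lower with TTX than higher, and the called falls were larger than the called rises. With limma on log2(value + 1), each culture as a term and Benjamini-Hochberg adjustment over all genes tested, 1570 of the 12073 genes (13.0%) passed a two-sided threshold of 0.05, and these are called changed below. Of them 910 (7.54%) were lower and 660 (5.47%) higher with TTX. Among the called genes 858 of the 910 were lower in every pair and 604 of the 660 higher in every pair, whereas 23.5% of all tested genes moved one way in 6 of 6 pairs. Over all genes tested, called or not, the balance was the other way, with 6695 on the higher side and 5378 on the lower, and 1430 were higher and 1409 lower in 6 of 6 pairs. The median change was -0.42 among the lowered and 0.33 among the raised, on the log2 scale, against 0.02 over all genes tested. A fall of at least 1 on the log2 scale was seen for 64 called genes and a rise of that size for 5, and of at least 0.5 for 354 and 87. At the other end, 5635 genes (46.7%) had a 95% interval that lay within 0.3 of 0. The 6 TTX libraries lay wholly below the 6 untreated libraries for 91 genes and wholly above them for 31, together 1.01% of those tested.

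The number of calls depended on the pairing and on single pairs. Without the pairs as a term 24 genes (0.199%) passed, 22 lower and 2 higher, and all of them were among the 1570. Leaving out wild-type pair 3 left 551 calls, knockdown pair 1 left 140, knockdown pair 2 left 787 and knockdown pair 3 left 376. Each of the 1570 genes kept its direction in each of these fits. These genes were called on the agreement of the same pairs, so this is no separate result. The interaction term, which tests whether the TTX change differed between the genotypes, called 0 genes in limma, with 455 at an unadjusted p under 0.05 and 6 called on the scale of the deposited values. This does not show that the genotypes responded alike.

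**Figure D1:**
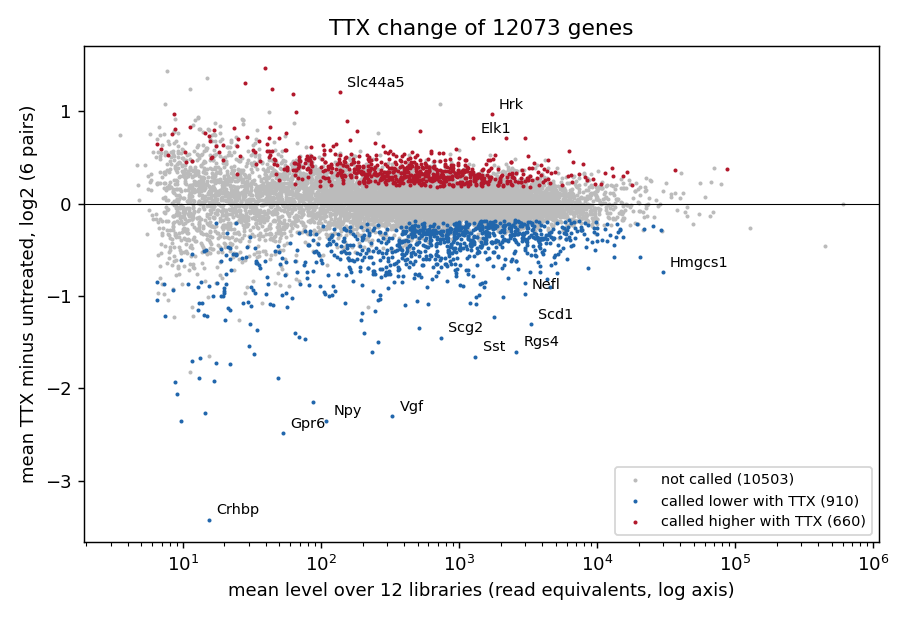
Mean TTX minus untreated change over 6 pairs (log2, vertical axis) against the mean level over 12 libraries (read equivalents, log axis) for 12073 genes, 1 point each. Blue points are the 910 genes called lower and red points the 660 called higher; the falls reach -3.42 and the rises 1.46.

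**Figure D2:**
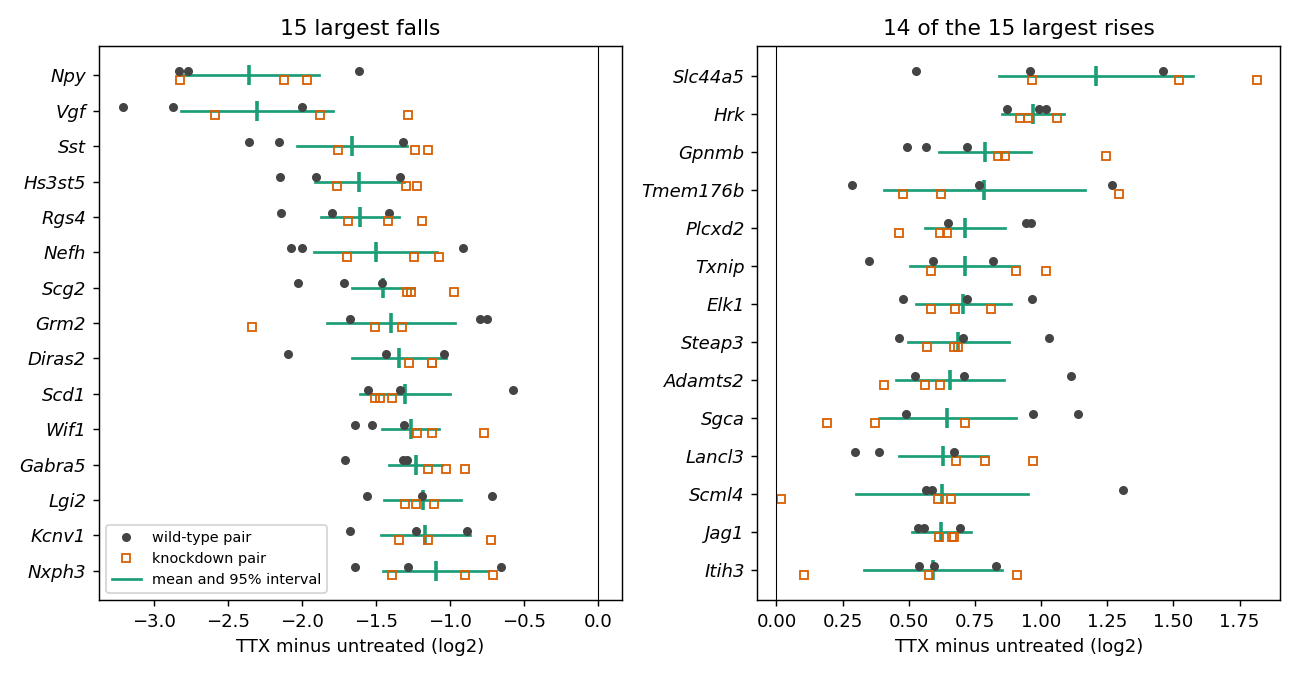
TTX minus untreated difference (log2) of each of the 6 pairs for the 15 genes that fell most and 14 of the 15 that rose most among called genes with a mean of at least 100 read equivalents. Filled circles are wild-type pairs, open squares knockdown pairs, and the green bar is the mean with its 95% interval; all pairs of each gene lie on the same side of 0.

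Neuropeptide precursors had the lowest median of 35 gene lists, but this order depended on the value added before taking logs. Of 20 cortical peptide genes listed, 13 were tested and 7 lay under the filter on low values. Of the 13, 7 were called lower and 0 higher. The median of the 13 was -0.88 on the log2 scale, against 0.02 over all genes. With 10 added in place of 1 it was -0.43, whereas the cholesterol enzymes described below had medians between -0.70 and -0.62 over the alternatives. Npy, which encodes neuropeptide Y of inhibitory interneurons, was at 131, 105 and 271 in wild-type cultures 1 to 3 and at 18.4, 13.9 and 87.8 in the same cultures with TTX. Knockdown Npy levels were 268, 198 and 105 untreated and 37.0, 44.8 and 26.2 with TTX. All 6 TTX libraries lay below all 6 untreated ones, and the mean fall was 5.11-fold (log2 -2.35, SE 0.19, adjusted p = 0.00481). Sst encodes somatostatin, the marker peptide of another interneuron class. Sst was at 1472, 1108 and 1862 read equivalents in untreated wild-type cultures 1 to 3 and at 287, 445 and 418 with TTX. In knockdown cultures Sst was at 2714, 1935 and 2652 untreated and at 1222, 819.7 and 783 with TTX. It fell in 6 of 6 pairs by 3.16-fold (log2 -1.66, SE 0.15, adjusted p = 0.00495), although 1 knockdown TTX library lay above the lowest untreated library. Adcyap1, the precursor of the peptide PACAP, gave the smallest p of the peptide genes. Adcyap1 was at 281, 498 and 184 in wild-type cultures 1 to 3 and at 108, 197 and 64.8 in the same cultures with TTX. The Adcyap1 levels of knockdown cultures 1 to 3 were 502, 373 and 208 without TTX and 318, 246 and 118 with it. It fell in every pair (log2 -1.04, SE 0.05, adjusted p = 0.00246), with overlap between cultures. Cort, which encodes cortistatin, and Vip, which encodes vasoactive intestinal peptide, also fell, by -1.92 (adjusted p = 0.0211) and -1.54 (adjusted p = 0.0108), from mean levels of 27.0 and 44.9 read equivalents. Cck, the abundant cholecystokinin precursor, was chosen after its values were seen as a peptide gene that did not pass: its change was -0.06 (SE 0.11, adjusted p = 0.751).

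Some precursors and processing enzymes of dense-core vesicles fell, and most did not pass. Vgf encodes a granin-like precursor that neurotrophins and activity induce. Vgf was at 166, 645 and 565 read equivalents in untreated wild-type cultures 1 to 3 and at 40.8, 87.5 and 60.1 with TTX. Knockdown Vgf levels were 1288, 229 and 441 untreated and 213, 93.7 and 119 with TTX. The mean fall was 4.94-fold (log2 -2.30, SE 0.21, adjusted p = 0.00495), with every pair lower and with overlap between cultures. Scg2, the secretogranin II of dense-core vesicles, was at 1108, 1107 and 903 in wild-type cultures 1 to 3 and at 337, 272 and 327 in the same cultures with TTX. In knockdown cultures Scg2 was at 1352, 958 and 999 untreated and at 552, 399 and 509 with TTX. No TTX library reached the lowest untreated one (log2 -1.45, SE 0.09, adjusted p = 0.00305). Of the 14 tested genes of the dense-core granule 5 were called lower and 0 higher (median -0.19), and 6 were bounded, with a 95% interval within 0.3 of 0. Pcsk2 (log2 -0.79, SE 0.08, adjusted p = 0.00681), a convertase that cuts prohormones, and Chgb (log2 -0.53, SE 0.06, adjusted p = 0.00833), chromogranin B, were among them. Cpe, the carboxypeptidase that finishes the same peptides, was bounded within 0.3 of 0 (log2 0.06).

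Genes with a mean under 100 read equivalents included falls larger than those above. Crhbp, which encodes the protein that binds corticotropin-releasing hormone, was at 12.8, 14.7 and 28.8 read equivalents in untreated wild-type cultures 1 to 3 and at 0, 0.877 and 2.67 with TTX. The Crhbp levels of knockdown cultures 1 to 3 were 60.3, 23.6 and 35.1 without TTX and 3.32, 0.915 and 3.02 with it. Its untreated mean was 29.2 and its TTX mean 1.80, so the fitted change of -3.42 depends on the added 1 and moved between -4.81 and -1.63 over the alternatives. Gpr6, a G-protein-coupled receptor that signals through cAMP without a bound ligand, was at 96.0, 115 and 72.0 in wild-type cultures 1 to 3 and at 13.3, 7.89 and 20.0 in the same cultures with TTX. Knockdown Gpr6 levels were 81.8, 64.8 and 109 untreated and 16.6, 15.6 and 19.5 with TTX. The groups did not overlap (log2 -2.49, SE 0.23, adjusted p = 0.00495). Nppc, the precursor of C-type natriuretic peptide, fell from a mean of 144 to 31.1 (log2 -2.15, SE 0.15, adjusted p = 0.00306), also without overlap. Tnn, an extracellular matrix tenascin, and Mas1, a receptor of angiotensin fragments, fell by -2.35 and -2.27 from means of 16.7 and 23.7. Over the alternatives Tnn moved between -3.52 and -1.03 and Mas1 between -3.36 and -1.12, and their calls were lost in 3 and 4 of 17.

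**Figure D3:**
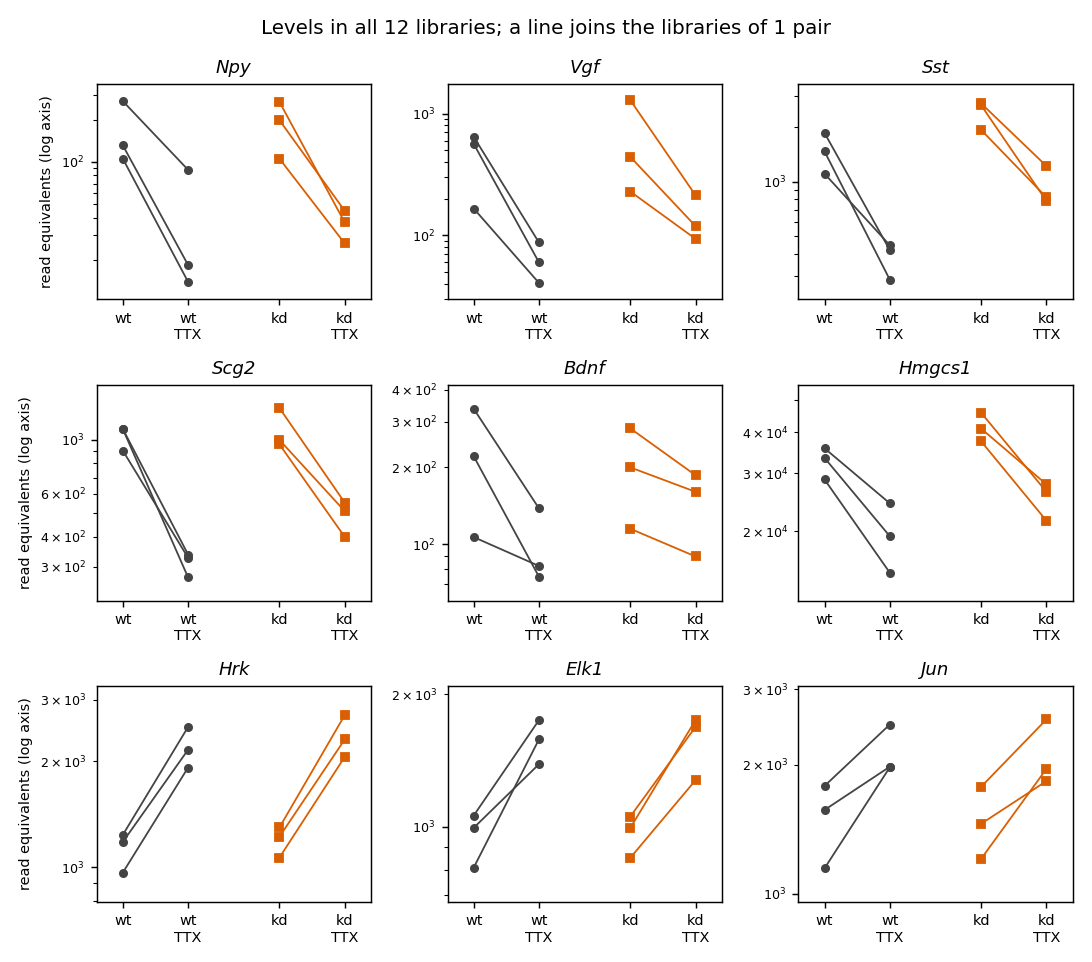
Levels of 9 genes in all 12 libraries (read equivalents, log axis), with a line joining the untreated and TTX libraries of a pair; wt is wild-type and kd is Ehmt1 knockdown. Every line falls for Npy, Vgf, Sst, Scg2, Bdnf and Hmgcs1 and rises for Hrk, Elk1 and Jun.

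Of the genes named above, 4 carry the CRE letters TGACGTCA, a sequence that CREB binds, near their annotated start. The windows below are from RefSeq on build GRCr8 and cover the 150 bases before the annotated start and the first 25 bases after it, on the strand of the gene, with the CRE in capitals. They are shown because these genes hold the letters and fell by at least 1 on the log2 scale. Other genes that fell further than Scg2 and Sst, such as Crhbp and Npy, are not shown.
Scg2 (chr9:88256842-88257016, minus strand): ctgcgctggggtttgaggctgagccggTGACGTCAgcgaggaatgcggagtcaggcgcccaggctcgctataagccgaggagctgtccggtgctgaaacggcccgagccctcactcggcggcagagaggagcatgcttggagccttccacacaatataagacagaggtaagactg
Vgf (chr12:25276996-25277170, minus strand): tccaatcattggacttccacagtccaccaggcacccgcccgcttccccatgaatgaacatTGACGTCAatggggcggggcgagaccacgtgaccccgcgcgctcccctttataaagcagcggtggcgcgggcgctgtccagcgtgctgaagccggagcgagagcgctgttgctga
Gpr6 (chr20:46075227-46075401, minus strand): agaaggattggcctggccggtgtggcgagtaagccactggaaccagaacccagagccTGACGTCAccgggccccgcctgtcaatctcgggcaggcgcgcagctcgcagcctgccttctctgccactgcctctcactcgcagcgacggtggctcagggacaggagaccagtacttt
Sst (chr11:90461396-90461570, plus strand): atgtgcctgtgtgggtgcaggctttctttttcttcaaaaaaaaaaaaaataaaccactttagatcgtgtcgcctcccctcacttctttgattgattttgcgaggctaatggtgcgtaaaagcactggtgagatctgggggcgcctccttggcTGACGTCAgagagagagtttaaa
In Sst the letters lie after the annotated start and in the other three before it. Over 300-base windows (250 before and 50 after the start, both strands searched, the sequence being its own reverse complement), 319 of the 9802 tested genes with a promoter entry held a CRE, or 3.25%. The share was 3.49% among genes called lower, 2.26% among genes called higher and 8.16% (4 of 49) among those that fell by at least 1. These 4 are the genes printed above, so that share is not separate evidence. A match is a run of letters and not a measured binding site.

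Some genes of the later transcriptional response to activity fell, and most immediate early genes did not pass. Of 26 tested late activity genes 12 were called lower and 3 higher, Cdkn1a, Pim1 and Timp1 (median -0.34), and 4 were called lower and 2 higher of 30 immediate early genes (median -0.06). The difference between the lists was not tested. Over all genes tested 7.54% were called lower and 5.47% higher, which is the background for each list count in this report. Beside the 13.0% of all genes called, the immediate early genes were not called less often. The late list shares Npy, Sst, Vgf and Scg2 with the lists above. Bdnf, the growth factor that strengthens synapses, was at 107, 338 and 220.4 read equivalents in untreated wild-type cultures 1 to 3 and at 82.3, 138 and 74.7 with TTX. In knockdown cultures Bdnf was at 283, 115 and 199 untreated and at 186, 89.6 and 160.1 with TTX. It fell in 6 of 6 pairs (log2 -0.75, SE 0.15, adjusted p = 0.0305), the call was lost in 8 of 18 alternatives, and its 10 distinct transcript entries gave changes between -0.79 and -0.75. Nptx2, a secreted pentraxin that gathers AMPA receptors, also fell (log2 -0.56, SE 0.14, adjusted p = 0.0475), at the edge of the threshold.

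The classical immediate early genes gave small or mixed changes. Arc, which drives AMPA receptor uptake, was at 74.9, 85.6 and 244 in wild-type cultures 1 to 3 and at 106, 79.6 and 107 in the same cultures with TTX. The Arc levels of knockdown cultures 1 to 3 were 233, 95.2 and 214 without TTX and 115, 90.3 and 193 with it. It did not pass (log2 -0.34, SE 0.23, adjusted p = 0.372), with 5 of 6 pairs lower. Fos, the transcription factor most used as a mark of activity, was at 103, 86.6 and 212 read equivalents in untreated wild-type cultures 1 to 3 and at 113, 78.3 and 210.4 with TTX. Knockdown Fos levels were 137, 80.2 and 166 untreated and 159, 165 and 267 with TTX. It did not pass either (log2 0.32, SE 0.11, adjusted p = 0.104), and 4 of 6 pairs were higher. Npas4, induced by calcium entry, had a change of -0.60 (SE 0.20, adjusted p = 0.0957) from a mean of 52.4, and Homer1 one of -0.17 (adjusted p = 0.179). The nuclear receptors Nr4a2 (log2 -0.77, SE 0.11, adjusted p = 0.0124) and Nr4a3 (log2 -0.74, SE 0.13, adjusted p = 0.0196) were called lower in this list, together with Maff and Nfil3. Jun, a partner of Fos in the AP-1 factor, moved the other way. Jun was at 1569, 1147 and 1785 in wild-type cultures 1 to 3 and at 1979, 1973 and 2482 in the same cultures with TTX. In knockdown cultures Jun was at 1207, 1457 and 1777 untreated and at 1956, 1832 and 2551 with TTX. All 6 TTX libraries lay above the 6 untreated ones (log2 0.52, SE 0.08, adjusted p = 0.0138). Klf10 was the other member called higher.

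Elk1, an ETS factor that carries ERK signals to serum response genes, was at 808, 995 and 1061 read equivalents in untreated wild-type cultures 1 to 3 and at 1580, 1388 and 1747 with TTX. The Elk1 levels of knockdown cultures 1 to 3 were 995, 1056 and 851 without TTX and 1748, 1687 and 1277 with it. The groups did not overlap (log2 0.71, SE 0.07, adjusted p = 0.00671). Of the 16 ERK feedback and ETS genes tested, 2 were called lower and 3 higher with a median of 0.00. Spred3 (log2 -0.51, SE 0.10, adjusted p = 0.0239) and Dusp7 (log2 -0.36, SE 0.06, adjusted p = 0.0202), brakes on the pathway, fell, and Etv4 rose (log2 0.35, SE 0.06, adjusted p = 0.0177). Among 14 regulators of G-protein signalling 4 were called lower and 0 higher. Rgs4, the cortical one that shortens signals of Gi and Gq, was at 2291, 4326 and 2788 in wild-type cultures 1 to 3 and at 861, 1243 and 632 in the same cultures with TTX. Knockdown Rgs4 levels were 5547, 2827 and 5421 untreated and 2079, 1238 and 1686 with TTX. It fell by 3.05-fold without overlap (log2 -1.61, SE 0.11, adjusted p = 0.00306), and Rgs2 fell too (log2 -0.77, SE 0.11, adjusted p = 0.0133).

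RNA of the cholesterol synthesis enzymes was lower along the whole pathway. All 20 enzymes tested were lower, 19 were called and the median was -0.66 on the log2 scale. Background for these counts is the 7.54% of all genes called lower. Of the 20, 18 were lower in 6 of 6 pairs. Hmgcs1, which condenses acetoacetyl-CoA into HMG-CoA, was at 35755, 33420 and 28730 read equivalents in untreated wild-type cultures 1 to 3 and at 24316, 19310 and 14956 with TTX. In knockdown cultures Hmgcs1 was at 45861, 41036 and 37541 untreated and at 26365, 27770 and 21529 with TTX. Its groups did not overlap (log2 -0.74, SE 0.07, adjusted p = 0.00495). Mvd, which decarboxylates mevalonate diphosphate, was at 1821, 1436 and 1136 in wild-type cultures 1 to 3 and at 744, 828.7 and 591 in the same cultures with TTX. The Mvd levels of knockdown cultures 1 to 3 were 2561, 1905 and 1812 without TTX and 1051, 1057 and 951 with it. This was the largest fall of the pathway (log2 -1.01, SE 0.09, adjusted p = 0.00495), again without overlap. Fdps, which makes farnesyl diphosphate, was at 6851, 4603 and 4210 read equivalents in untreated wild-type cultures 1 to 3 and at 3334, 2616 and 2328 with TTX. Knockdown Fdps levels were 7548, 5872 and 6428 untreated and 3704, 3706 and 3219 with TTX. It fell in every pair (log2 -0.90, SE 0.07, adjusted p = 0.00436).

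By step, the acetyl-CoA thiolase Acat2 fell by -0.81 and the kinases Mvk and Pmvk by -0.65 and -0.52. Idi1, the isopentenyl diphosphate isomerase, changed by -0.74. The squalene steps Fdft1 and Sqle changed by -0.58 and -0.51, and the cyclase Lss by -0.62. After lanosterol the changes were -0.70 for Cyp51, -0.69 for Tm7sf2, -0.66 for Msmo1, -0.72 for Nsdhl, -0.71 for Hsd17b7, -0.37 for Sc5d and -0.49 for Dhcr7. Ebp was the 1 enzyme that missed the threshold, at -0.55 (SE 0.15, adjusted p = 0.0644). Beyond Acat2, Hmgcs1, Mvd and Fdps these enzymes fall outside the rule for named genes and are given to follow the pathway by step. Without the pairs 5 of the 20 passed, and leaving out 1 pair left between 10 (without knockdown pair 1) and 19.

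Regulators of sterol supply split. Stard4, a carrier of cholesterol inside the cell, fell by 2.08-fold (log2 -1.05, SE 0.12, adjusted p = 0.0078). Insig1, which holds SREBP in the endoplasmic reticulum and is itself an SREBP target, fell (log2 -0.81, SE 0.07, adjusted p = 0.00495), as did Mylip (log2 -0.62, SE 0.05, adjusted p = 0.00436), a ubiquitin ligase. Srebf2, the gene of SREBP2, fell little (log2 -0.29, SE 0.07, adjusted p = 0.044). Abca1, the exporter of cholesterol, and Soat1, which stores it as ester, were called higher (log2 0.45 and 0.33, adjusted p = 0.0119 and 0.046). Of the 16 genes of this list 5 were called lower and 2 higher, with 8 on each side of 0. Fatty acid synthesis had 7 of 14 called lower and 0 higher (median -0.24). Scd1, the desaturase that makes oleic acid, was at 4677, 4621 and 5074 in wild-type cultures 1 to 3 and at 3141, 1832 and 1729 in the same cultures with TTX. In knockdown cultures Scd1 was at 4938, 4300 and 4464 untreated and at 1737, 1636 and 1610 with TTX. The groups did not overlap (log2 -1.31, SE 0.13, adjusted p = 0.00571), and wild-type pair 1 had the smallest fall. Acss2 (log2 -0.58, SE 0.06, adjusted p = 0.00574), which makes acetyl-CoA from acetate, and Acsl4 (log2 -0.55, SE 0.06, adjusted p = 0.00688), an acyl-CoA synthetase, also fell.

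Promoter windows are shown for 3 of these enzymes that hold CCAAT, the letters bound by NF-Y. The letters or their reverse complement ATTGG are in capitals. Acat2, which fell more than Hmgcs1, held no CCAAT on either strand in its 300-base window and is not shown. Cyp51 and Dhcr7 held none either. They are from RefSeq on GRCr8 and cover the same bases around the start as above.
Fdps (chr2:176804792-176804966, minus strand): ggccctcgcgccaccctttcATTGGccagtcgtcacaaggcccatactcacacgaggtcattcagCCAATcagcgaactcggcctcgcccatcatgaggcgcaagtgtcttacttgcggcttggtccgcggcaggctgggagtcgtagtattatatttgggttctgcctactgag
Hmgcs1 (chr2:53382154-53382328, plus strand): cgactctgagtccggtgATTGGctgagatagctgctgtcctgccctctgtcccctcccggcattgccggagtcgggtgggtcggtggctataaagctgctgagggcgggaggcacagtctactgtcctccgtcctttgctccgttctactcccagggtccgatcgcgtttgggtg
Mvd (chr19:67414950-67415124, minus strand): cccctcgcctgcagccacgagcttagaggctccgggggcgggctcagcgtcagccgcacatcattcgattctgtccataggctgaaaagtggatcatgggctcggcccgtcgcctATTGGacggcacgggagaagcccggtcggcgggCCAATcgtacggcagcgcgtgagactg
In the 300-base windows, 12 of the 15 cholesterol enzymes with a promoter entry held CCAAT on either strand (80.0%), against 37.2% of all tested genes and 36.2% of those called lower. The progenitor and cell cycle genes, described below as raised, held it in 65.0%. An SREBP motif spelled TCACNCCAC was found in 0 of the 15 and in 1.13% of tested genes, which says only that these exact letters were not in these windows.

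Among voltage-gated channels the largest falls described here were of potassium channels. Of 27 voltage-gated potassium channel genes tested 12 were called lower and 0 higher (median -0.32). Kcnc2, a Kv3 channel that lets interneurons fire fast, was at 154, 186 and 174 read equivalents in untreated wild-type cultures 1 to 3 and at 80.3, 74.7 and 83.2 with TTX. The Kcnc2 levels of knockdown cultures 1 to 3 were 277, 240.1 and 184 without TTX and 118, 121 and 93.8 with it. It fell by 2.11-fold in every pair without overlap (log2 -1.08, SE 0.07, adjusted p = 0.00305). Kcnv1, a silent subunit that modifies other channels, changed by -1.17 (adjusted p = 0.00681), and Kcna1, the axonal Kv1 subunit, went from a mean of 151 to 77.4 (adjusted p = 0.00481). Kcnq3, a subunit of the M current, changed by -0.91 (adjusted p = 0.0127). Kcnip4, an A-type channel partner outside this list, fell in all pairs (log2 -0.94, SE 0.06, adjusted p = 0.00305).

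The sodium channels, which TTX blocks, fell less. Of 10 tested genes 5 were called lower and 1 higher (median -0.24). Scn2a, the main channel of young excitatory neurons, ranged from 5073 to 9886 (median 6336) in untreated and from 3576 to 6973 (median 4299) in TTX libraries. It fell in every pair (log2 -0.48, SE 0.07, adjusted p = 0.0119). Scn1a, carried mainly by interneurons, fell slightly (log2 -0.29, SE 0.07, adjusted p = 0.0445), and Scn8a did not pass (log2 -0.23, SE 0.12, adjusted p = 0.243). Of 21 calcium and HCN channel genes 7 were called lower and 0 higher (median -0.21), among them Pex5l (log2 -0.65, SE 0.07, adjusted p = 0.00671), which traffics HCN channels, Cacna2d2 (log2 -0.54, SE 0.08, adjusted p = 0.0148) and Hcn3 (log2 -0.41, SE 0.06, adjusted p = 0.0111).

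AMPA receptor subunits, the receptors that synaptic scaling inserts, changed little at the RNA level. Gria1 ranged from 1837 to 3122 (median 2282) in untreated and from 1754 to 3347 (median 2321) in TTX libraries. Its change was 0.04 (SE 0.07, adjusted p = 0.695). Gria2 was bounded within 0.3 of 0 at 0.02 (SE 0.08, adjusted p = 0.877), and both signs depended on which pair was left out. Of the 14 genes of this list Grip1, a scaffold of these receptors, was called (log2 -0.37, SE 0.05, adjusted p = 0.0104). That share is near the 7.54% of all genes called lower. Of 13 NMDA and metabotropic receptor genes 7 were called lower and 0 higher (median -0.30). Grm2, a presynaptic receptor that limits release, ranged from 212 to 332 (median 301) in untreated and from 53.2 to 193 (median 113) in TTX libraries. It fell by 2.64-fold without overlap (log2 -1.40, SE 0.18, adjusted p = 0.00984), and Grm8 (log2 -0.79, SE 0.13, adjusted p = 0.0153) and Grm3 (log2 -0.66, SE 0.10, adjusted p = 0.0153) fell with it.

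GABA-A receptor subunits fell unevenly. Gabra5, the alpha subunit of extrasynaptic receptors, was at 2158, 2643 and 1917 in wild-type cultures 1 to 3 and at 880.2, 1060 and 585 in the same cultures with TTX. Knockdown Gabra5 levels were 3973, 2348 and 1919 untreated and 1953, 1262 and 867 with TTX. The fall was 2.35-fold, in 6 of 6 pairs (log2 -1.23, SE 0.07, adjusted p = 0.00305), with overlap between cultures. Gabrd (log2 -0.56, SE 0.13, adjusted p = 0.0443) and Gabra3 (log2 -0.55, SE 0.12, adjusted p = 0.0343) fell less. In the list of receptors and scaffolds 7 of 19 were called lower and 0 higher (median -0.20), and Gabbr1 was bounded within 0.3 of 0. Of 29 presynaptic genes 13 were called lower and 0 higher (median -0.27). Sv2c (log2 -0.98, SE 0.11, adjusted p = 0.00709), a vesicle protein, Syt2 (log2 -0.96, SE 0.14, adjusted p = 0.0133), a fast calcium sensor, Rph3a (log2 -0.90, SE 0.11, adjusted p = 0.00918), a Rab3 effector, and Snap25 (log2 -0.61, SE 0.07, adjusted p = 0.0095), a membrane SNARE, fell most. Of 23 postsynaptic genes 6 were called lower and 0 higher (median -0.12), with Camk4, a nuclear calcium kinase, at -0.90 (adjusted p = 0.011) and Camk2b at -0.41 (adjusted p = 0.0101). Without the pairs 0 genes of these 5 receptor and synapse lists passed.

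Neurofilaments carried much of the fall among axonal genes. Nefh, the heavy chain, was at 388, 229 and 349.6 read equivalents in untreated wild-type cultures 1 to 3 and at 91.6, 121 and 86.8 with TTX. In knockdown cultures Nefh was at 669.8, 284 and 373 untreated and at 282, 134 and 114 with TTX. The fall was 2.83-fold (log2 -1.50, SE 0.17, adjusted p = 0.00811). Nefl, the light chain, and Nefm, the medium chain, changed by -0.98 (adjusted p = 0.00645) and -0.87 (adjusted p = 0.00495). Of 22 cytoskeletal genes 10 were called lower and 0 higher (median -0.28), and Map2, of dendrites, was bounded within 0.3 of 0. Of 9 general neuron markers 5 were called lower, 9 were lower (median -0.32) and 3 were bounded. Among those called, Syt1 and Snap25 are also counted in the presynaptic list and Nefl in the cytoskeletal one, so the lists are not separate. The lower summed level of the 9 markers in 6 of 6 pairs stands beside the falls of the neuronal lists, and its part in them was not tested. In wild-type pair 1 the mean change was -0.34 for the neuron markers and 0.09 for the postsynaptic genes. In the other pairs the means were -0.49 to -0.30 for the neuron markers and -0.25 to -0.14 for the postsynaptic genes.

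Inhibitory identity genes divided by kind. Gad1, which makes GABA, ranged from 1290 to 2474 (median 1757) in untreated and from 517 to 1643 (median 891) in TTX libraries. It fell in 6 of 6 pairs (log2 -0.99, SE 0.13, adjusted p = 0.0106), and so did Gad2 (log2 -0.59, SE 0.07, adjusted p = 0.00894), the vesicular transporter Slc32a1 (log2 -0.76, SE 0.10, adjusted p = 0.00984) and Calb1 (log2 -0.66, SE 0.08, adjusted p = 0.00894), a calcium buffer. Across the 17 genes of the list, 5 were called lower and 0 higher, 8 were on the higher side and the median was -0.05. The list's summed level was higher with TTX in 2 of 6 pairs, and Erbb4, a receptor of migrating interneurons, was bounded within 0.3 of 0. In projection neurons 6 of 13 genes were called lower and 1 higher (median -0.26). Fezf2 (log2 -0.80, SE 0.07, adjusted p = 0.00481), which specifies subcortical projection neurons, Slc17a6 (log2 -0.69, SE 0.09, adjusted p = 0.00973), a vesicular glutamate transporter, Foxp2 (log2 -0.63, SE 0.08, adjusted p = 0.0101) and Neurod1 (log2 -0.45, SE 0.06, adjusted p = 0.00987) fell, and Cux2, of upper layers, was the member that rose (log2 0.27). Slc17a7, the main cortical glutamate transporter, did not pass (log2 -0.23, SE 0.09, adjusted p = 0.13).

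**Figure D4:**
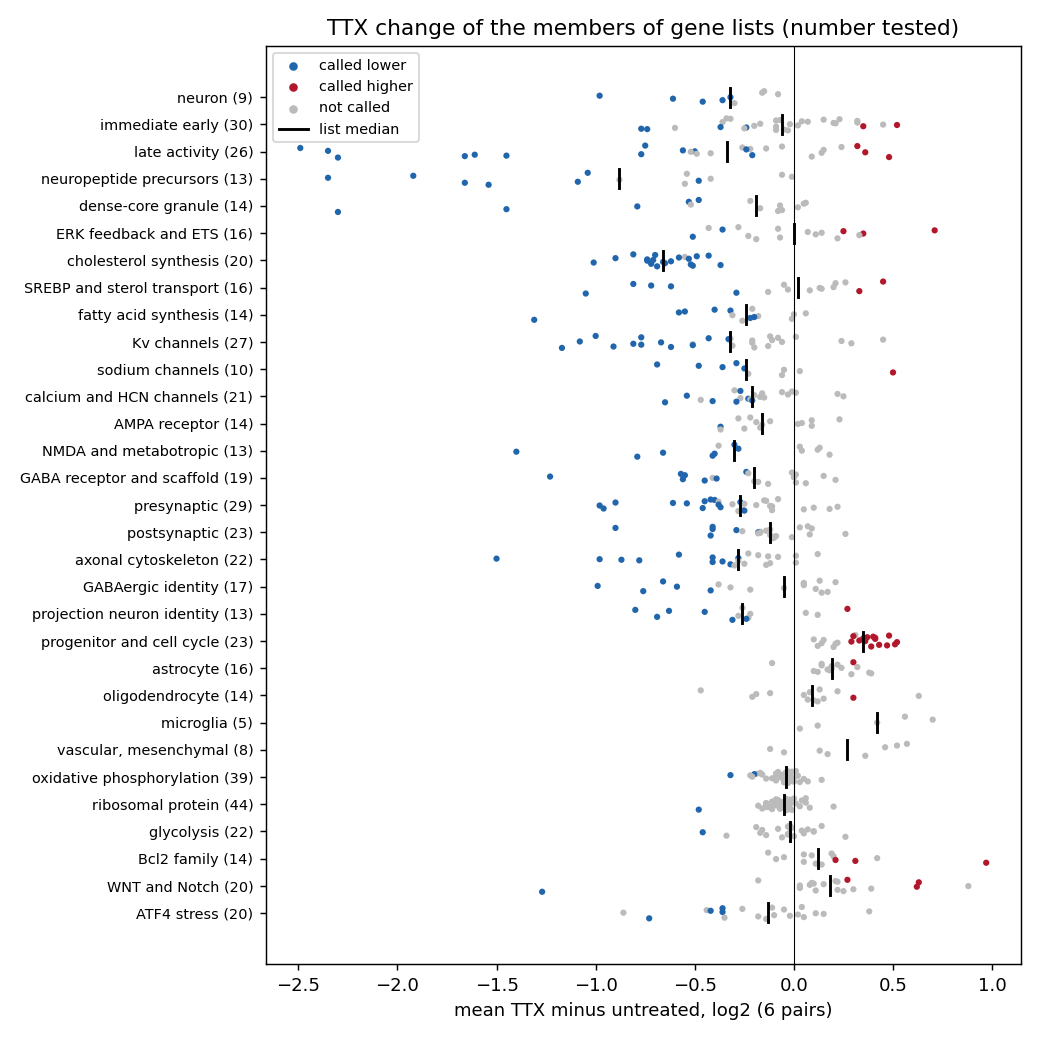
Mean TTX minus untreated change (log2, horizontal axis) of the tested members of 31 gene lists, 1 point per gene, with the number tested in brackets and the list median as a black bar. Blue points were called lower, red points higher and grey points not called; the cholesterol list has 19 of 20 points blue and the progenitor and cell cycle list has all 23 points to the right of 0.

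Other single genes with large falls were outside these groups. Hs3st5, a sulfotransferase that edits heparan sulfate, ranged from 200 to 428 (median 388) in untreated and from 78.8 to 170 (median 97.9) in TTX libraries. It fell without overlap (log2 -1.61, SE 0.12, adjusted p = 0.00436). Diras2, a small GTPase, changed by -1.35, Lgi2, a secreted synaptic ligand, by -1.19, and Nxph3, a neurexin ligand, by -1.10. Hdac9, a class IIa histone deacetylase, was at 558, 981 and 658 in wild-type cultures 1 to 3 and at 293, 412 and 267 in the same cultures with TTX. The Hdac9 levels of knockdown cultures 1 to 3 were 1176, 792 and 726 without TTX and 513, 409 and 381 with it. It fell without overlap (log2 -1.09, SE 0.07, adjusted p = 0.00306). Of the 22 deacetylase and H3K9 methylation genes tested, Hdac9 included, 2 were called lower and 0 higher. That share is near the 7.54% of all genes called lower. Of the same 22 genes, 17 were bounded within 0.3 of 0, Ehmt2 among them. Wif1, a secreted WNT inhibitor, was at 248, 343 and 148 read equivalents in untreated wild-type cultures 1 to 3 and at 85.7, 109 and 59.2 with TTX. Knockdown Wif1 levels were 341, 226 and 352 untreated and 156, 132 and 150.3 with TTX. It fell in every pair (log2 -1.27, SE 0.08, adjusted p = 0.00305). Of 20 WNT and Notch genes Wif1 was the 1 called lower and 3 were called higher. These were Jag1 and Dll4, ligands of Notch, and Axin2, a target of WNT.

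The rises were smaller, and Hrk had the smallest p among them. Hrk, a BH3-only member of the Bcl2 family that is induced in neurons deprived of trophic support, was at 1180, 1236 and 965 in wild-type cultures 1 to 3 and at 2159, 2507 and 1921 in the same cultures with TTX. In knockdown cultures Hrk was at 1297, 1065 and 1221 untreated and at 2708, 2059 and 2309 with TTX. The rise was 1.96-fold, with the 6 differences between 0.87 and 1.06 and no overlap (log2 0.97, SE 0.05, adjusted p = 0.00246). It passed without the pairs as well (adjusted p = 0.00729) and under every alternative. Bmf (log2 0.31, SE 0.07, adjusted p = 0.044) and Bid (log2 0.21, SE 0.04, adjusted p = 0.0309), other pro-apoptotic members, rose less, and 0 of the 14 family genes were called lower. The calls of Bmf and Bid were lost in 10 and 8 of 18 alternatives. Mcl1, which protects cells, was bounded within 0.3 of 0.

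Slc44a5, a choline transporter-like protein, was at 106, 69.8 and 91.5 read equivalents in untreated wild-type cultures 1 to 3 and at 154, 194 and 179 with TTX. The Slc44a5 levels of knockdown cultures 1 to 3 were 56.5, 98.9 and 77.3 without TTX and 201, 194 and 224 with it. It rose without overlap (log2 1.21, SE 0.15, adjusted p = 0.00973). Plcxd2, a protein with a phospholipase C domain, was at 2053, 1817 and 1886 in wild-type cultures 1 to 3 and at 3950, 3542 and 2958 in the same cultures with TTX. Knockdown Plcxd2 levels were 3199, 2849 and 1963 untreated and 4913, 4454 and 2703 with TTX. It rose in every pair (log2 0.71, SE 0.06, adjusted p = 0.00495), though cultures overlapped. Txnip (log2 0.71, SE 0.09, adjusted p = 0.00899), which binds thioredoxin and curbs glucose uptake, rose too. Steap3 (log2 0.69), a metalloreductase, Adamts2 (0.66), a procollagen protease, Sgca (0.65), a sarcoglycan, Lancl3 (0.63), Scml4 (0.63), Itih3 (0.59), an inhibitor heavy chain, and Kctd4 (0.53) were raised in 6 of 6 pairs. Jag1 was at 185, 211 and 293 read equivalents in untreated wild-type cultures 1 to 3 and at 273, 306 and 474 with TTX. In knockdown cultures Jag1 was at 224, 211 and 199.5 untreated and at 358, 335 and 306 with TTX. Its 6 differences lay between 0.54 and 0.69 (log2 0.62, SE 0.05, adjusted p = 0.00436). At low levels Gpr139, an orphan receptor, was at 15.6, 14.6 and 4.04 in wild-type cultures 1 to 3 and at 39.3, 45.1 and 31.6 in the same cultures with TTX. The Gpr139 levels of knockdown cultures 1 to 3 were 53.3, 37.3 and 16.2 without TTX and 97.3, 71.1 and 46.6 with it. It rose (log2 1.46, SE 0.19, adjusted p = 0.0106), as did Slc2a4 (log2 1.31, SE 0.27, adjusted p = 0.0304), the insulin-regulated glucose transporter, whose call was lost in 7 of 17 alternatives. Prlhr, a peptide receptor, was at 0, 0.977 and 183 read equivalents in untreated wild-type cultures 1 to 3 and at 1.02, 8.77 and 269.8 with TTX. It was called (log2 1.24, SE 0.30, adjusted p = 0.0449), but the call was lost in 10 of 17 alternatives, among them the omission of any 1 pair, and the change moved between 0.51 and 2.24.

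Complement C3 and 3 membrane protein genes that were called higher are given beside the microglial markers. C3, a complement component, was at 17.2, 2.93 and 267 in untreated wild-type cultures 1 to 3 and 97.7, 12.3 and 367 with TTX, and between 3.04 and 6.41 in knockdown libraries. It was called at the threshold (log2 0.99, SE 0.25, adjusted p = 0.0497), and the call was kept in 5 of 18 alternatives. Of 12 microglial markers 7 were below the filter and 0 of the 5 tested were called. Their summed level was 29.3 to 179 read equivalents untreated and 40.2 to 213 with TTX. Wild-type pair 1 stood apart, with a mean change of 1.81 over the list against -0.22 to 0.43 in the others, and Aif1, a microglial protein, went from 0.969 to 25.4 there. C1qa, C1qb and C1qc were listed at 0 in all 6 knockdown libraries. Gpnmb, a glycoprotein of lysosomes, rose (log2 0.79, SE 0.07, adjusted p = 0.00495) and had its highest levels in knockdown pair 1, at 1004 and 1795. Tmem176b (log2 0.79, SE 0.16, adjusted p = 0.0282) and its neighbour Tmem176a (log2 1.19, SE 0.21, adjusted p = 0.0192), membrane proteins, rose too. The calls of Tmem176b and Tmem176a were lost in 8 and 6 of 18 alternatives. The part of microglial RNA in the rises of C3, Gpnmb, Tmem176a and Tmem176b was not tested.

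Proliferation genes rose together. Of 23 progenitor and cell cycle genes 15 were called higher and 0 lower, and all 23 were on the higher side (median 0.35), against the 5.47% of all genes called higher. Mki67, present in dividing cells, was at 2311, 1587 and 4037 in wild-type cultures 1 to 3 and at 4026, 2004 and 5639 in the same cultures with TTX. Knockdown Mki67 levels were 2039, 3300 and 2288 untreated and 3181, 3801 and 3551 with TTX. It rose in every pair with wide differences between cultures (log2 0.52, SE 0.09, adjusted p = 0.019). Plk1 (log2 0.51, SE 0.09, adjusted p = 0.0182) and Aurkb (log2 0.48, SE 0.07, adjusted p = 0.0139), mitotic kinases, and Rrm2 (log2 0.47, SE 0.04, adjusted p = 0.00495), which makes deoxynucleotides, rose, and Sox2, a progenitor factor, was bounded within 0.3 of 0. Aurkb was at 6372 untreated and 9336 with TTX in wild-type culture 3, against 333 to 789 in all other libraries. The source of this excess was not tested. Without knockdown pair 1 a single member of the list passed (1 of 23), 4 passed without knockdown pair 3, 5 passed without wild-type pair 3, and with no pairing term 0 did. Astrocyte markers were on the higher side in 15 of 16 cases (median 0.19), with Acsbg1 the 1 called (log2 0.30, SE 0.04, adjusted p = 0.0127) and Slc1a3, a glutamate transporter, bounded. Of 14 oligodendrocyte genes Olig1 was the 1 called (log2 0.30, SE 0.07, adjusted p = 0.0369). Of 8 vascular and mesenchymal genes 0 were called in limma (median 0.27). The part of cell numbers in these rises was not tested.

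Few genes of core metabolism were called. Beside the 46.7% of all genes bounded within 0.3 of 0, the oxidative phosphorylation and ribosomal protein lists lay above that share, and glycolysis genes by less. Of 39 oxidative phosphorylation genes 31 were bounded within 0.3 of 0, and Cycs (log2 -0.32, SE 0.05, adjusted p = 0.0176) and Cox6c (log2 -0.20, SE 0.04, adjusted p = 0.0382) were the 2 called lower. Of 44 ribosomal protein genes 32 were bounded and 1 was called, in the lower direction. Of 22 glycolysis genes 13 were bounded and Pfkp, a phosphofructokinase, was called lower (log2 -0.46, SE 0.07, adjusted p = 0.015). Of 20 genes of the ATF4 stress response 4 were called lower and 0 higher (median -0.13): Trib3 (log2 -0.73, SE 0.10, adjusted p = 0.0106), Ddit3 (log2 -0.42, SE 0.06, adjusted p = 0.0105), Atf4 itself (log2 -0.36, SE 0.05, adjusted p = 0.0123) and Mthfd2 (log2 -0.36, SE 0.06, adjusted p = 0.017). Of 20 interferon response genes 2 were called higher, Ddx58 (log2 0.36, SE 0.08, adjusted p = 0.0391), an RNA sensor, and B2m (log2 0.27, SE 0.05, adjusted p = 0.0215), and 18 were on the higher side (median 0.21). Of 25 genes tied to synaptic scaling, 3 were called lower, Camk4, Bdnf and Nptx2, and 1 higher, Nrp2 (log2 0.26, SE 0.05, adjusted p = 0.0305), a semaphorin receptor.

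The authors' deposited table of commonly lowered genes groups annotation terms into 40 clusters, the first led by cholesterol biosynthetic process with 10 genes (the authors' enrichment p 6.29e-14). What the list is common to was not stated. Of the 99 symbols in the authors' deposited table, 99 were tested here, 98 were called lower and 99 were lower in 6 of 6 pairs, with a median of -0.74. These genes were chosen by the authors on the same samples, so the counts are not independent evidence.

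The size of the response differed between the 6 pairs. As the genes were called on the agreement of these same pairs, their direction in each pair is no separate result. The median over genes called lower was -0.43, -0.44 and -0.46 in wild-type pairs 1 to 3 and -0.44, -0.28 and -0.45 in knockdown pairs 1 to 3. The raised genes gave 0.35, 0.35 and 0.34, then 0.35, 0.26 and 0.32. Knockdown pair 2 was the weakest in both directions. The cholesterol list had means between -0.81 and -0.50 over the pairs and the neuropeptide list between -1.46 and -0.63. Wild-type pair 1 fell less in synaptic lists, with means of -0.08 for presynaptic and 0.09 for postsynaptic genes, against -0.44 to -0.26 and -0.25 to -0.14 in the other pairs.

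**Figure D5:**
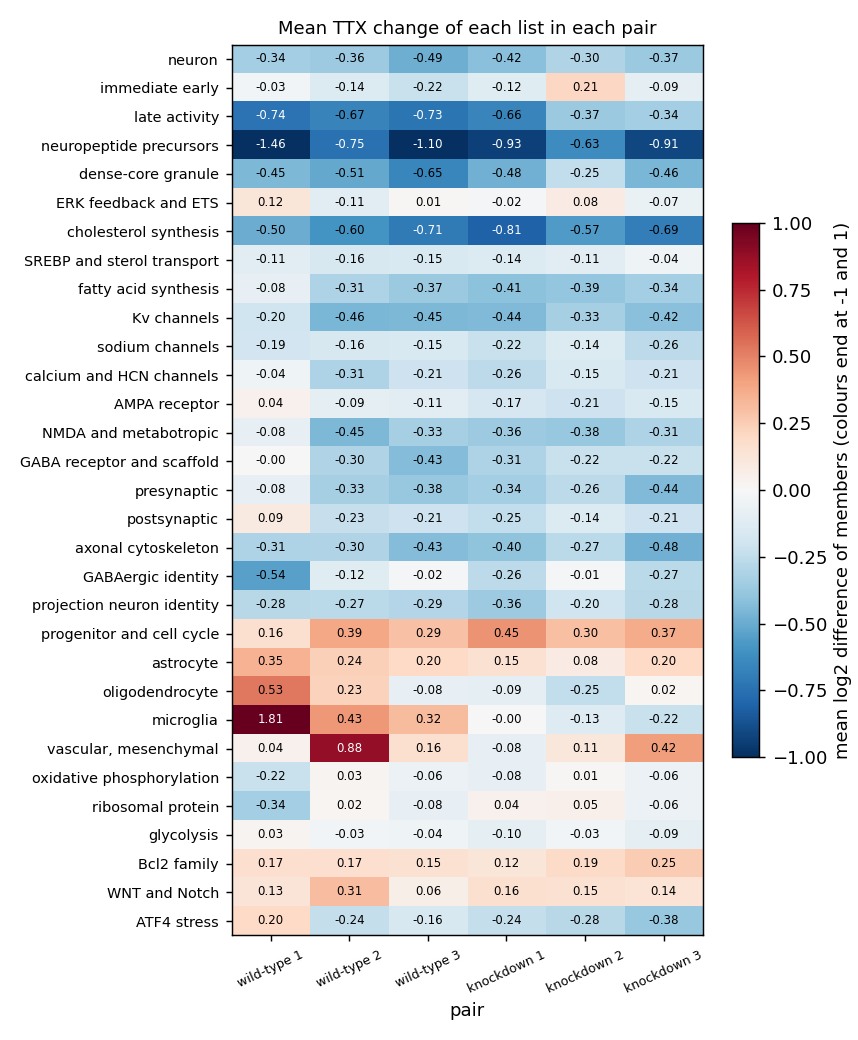
Mean TTX minus untreated change (log2) of the tested members of 31 gene lists (rows) in each of the 6 pairs (columns), printed in each cell, with blue for lower and red for higher and colours ending at -1 and 1. The cholesterol row is below 0 in all pairs and the progenitor and cell cycle row above 0, while the microglia row is high in wild-type pair 1 at 1.81.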

How the data were processed

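The authors' values are signal per RefSeq transcript as deposited: base coverage divided by a size factor per library, as read from the values, which are whole multiples of 1 step per library with low values at multiples of 42 steps. Each value was divided by 42 here. Tools named in the submitters' processing notes are GSNAP, DESeq2 and DESeq, with build rn6 and no versions. The strand setting and lanes are not given in the sources used here. The deposited table held 18905 entries, 18697 distinct, for 17339 symbols, with 1 entry kept per symbol, that of highest mean. Its deposited z score and p-value columns, the authors' own comparison of genotypes, were not used.

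Values went into limma 3.58.1 (R 4.3.3) as log2(value + 1), with 6 cultures and a TTX term per genotype, the mean of the 2 terms as contrast and 4 residual degrees of freedom. These are not counts, so no count test was run. The labels do not say that replicates were separate cultures, and p-values measure only the spread between these samples. The fit was tested on simulated data. SE is the standard error of the fit, and bounded means a 95% interval within 0.3 of 0.

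Named genes were the 15 largest falls and rises and the 5 smallest p per direction among called genes with a mean of at least 100 that moved one way in 6 of 6 pairs, up to 5 per direction under 100, up to 4 called members per list, and 16 further genes. Members, lists and rules were chosen with earlier results of these data known. Genes outside the rule, such as Cck, Klf10, Nfil3, Abca1, Soat1, Cux2 and single immune markers, were chosen after their values were seen. Some genes are not reported here. Promoter letters came from RefSeq, GRCr8, where 9802 of the 12073 genes (81.2%) had an entry. Other deposited tables, each of 1 genotype or treatment, were normalized separately and not used here.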

Additional observations from a re-analysis of the deposited data

Results flagged for a closer look

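Among 137 named genes and 35 lists, the 6 pair differences were screened for 1 pair far from the others by Dixon's criterion, which chance meets in about 1 in 20 groups. It was met by 8 genes and 4 lists, and in 9 of these 12 the pair was wild-type pair 1.

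In wild-type pair 1 the log2 difference was -0.57 for Scd1 (-1.55 to -1.33 in the other pairs) and -0.32 for Acsl4 (-0.66 to -0.55). It was 0.05 for Syt1 (-0.65 to -0.42), 0.15 for Homer1 (-0.31 to -0.14) and 0.41 for Scn8a (-0.48 to -0.29). The list means of that pair were -0.08 for fatty acid synthesis (-0.41 to -0.31), 0.09 for postsynaptic genes (-0.25 to -0.14), 1.81 for microglia (-0.22 to 0.43) and -0.34 for ribosomal proteins (-0.08 to 0.05).

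In other pairs, Diras2 had -2.09 in wild-type pair 3 (-1.43 to -1.04), Calb1 had -0.30 in wild-type pair 2 (-0.85 to -0.65), and Ehmt1 had -0.02 in knockdown pair 2 (0.13 to 0.20).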

How the results depend on the processing

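All 1570 calls kept their direction in all 18 alternatives (1466 of the 1466 tested under the filter of 50), while the number passing moved. As the alternatives refit the same pairs, the kept direction is no separate evidence. Changing only the pair term or the trend and robust options leaves each mean difference as it was, so no direction could change there. With no filter 760 passed (240 higher, 520 lower), on the scale of the deposited values 772 (269 and 503, with 6 interaction calls), and with limma's trend and robust options 2371 (1091 higher). Without the replicate block, that is without the pairs, 24 passed (2 and 22), with 14 of the 188 calls over list members. The other tool settings gave 1505 to 2022. Leaving out 1 pair gave 140 to 1553 calls, 22 to 662 of them higher and 118 to 891 lower, and 46 to 204 over list members. The share of calls that were higher, 660 of 1570 with all pairs, was 31.6% with no filter, 34.8% on the deposited scale, 8.33% without the pairs, and 30.3%, 15.7%, 30.5% and 23.9% without wild-type pair 3 and knockdown pairs 1, 2 and 3. The cause was not tested. Leaving out 1 pair, Gria1 ranged from -0.00 to 0.09, below 0 without wild-type pair 2, and Gria2 from -0.05 to 0.07, below 0 without wild-type pair 1 (-0.05) or knockdown pair 3 (-0.02). Of the 144 genes taken by the naming rule, 24 kept their side of the threshold without the pairs, 58 without knockdown pair 1 and 90 to 129 without another single pair, and no direction changed but those of Gria1 and Gria2. The call of Maff was lost in 11 of 17 alternatives. It was lost in 10 of 18 for Scn1a, Cox6c and Ddx58 and in 9 of 18 for Gabrd and Nptx2. For Gabra3, Nrp2, Olig1, Spred3 and Srebf2 it was lost in 8 of 18. Genes under the filter of 10 read equivalents in 3 libraries were not tested.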
